A study of Mus musculus with 12 samples.

Results

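Plasminogen activation was followed through 12 RNA-seq libraries in 5 genes: the activators Plau and Plat, the urokinase receptor Plaur, and the serpin inhibitors Serpine2 and Serpinb2. They were taken by symbol, with earlier results of these data known, and are 5 of the 31017 rows of the count table. The libraries come from 4T1 cells, a mouse mammary carcinoma line, that had been nucleofected with Cas9 and either a control or an ETV4 guide RNA and then grown as droplets of collagen I. All 4 groups of 3 libraries therefore share the cell line, Cas9, the collagen gel and 2% serum. They are the control guide (control), the ETV4 guide (Etv4_KO), and the same 2 cell populations given 25 ng/ml of FGF10 together with 40 ng/ml of FGF2 (control_FGF and Etv4_KO_FGF). In the FGF experiments the cells spent the first day in 10% serum with both factors, followed by 4 days in 2% serum with both. The labels do not say whether the groups without FGF also had that first day in 10% serum, or how many days they were cultured. If serum or culture time differed, its effect and that of FGF cannot be told apart. Collagen concentrations of 1.2 and 2.4 mg/ml are both named, with no statement of which library had which. All 6 ETV4 guide libraries carry one further tag in their names, and whether they were a pool or 1 clone is not stated. For 1 clone, the effects of the clone and of the genotype cannot be told apart. Nothing in the labels makes the replicates separate cultures, and p-values then measure only a spread between libraries that may be technical.

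Urokinase, encoded by Plau, and tissue plasminogen activator, encoded by Plat, are serine proteases that cut the zymogen plasminogen into plasmin, a broad protease that degrades fibrin and matrix proteins and activates pro-metalloproteinases. Plaur encodes uPAR, a lipid-anchored receptor that holds urokinase at the cell surface and so focuses plasmin formation there. Serpins trap the activators in inactive complexes: Serpinb2 encodes PAI-2, and Serpine2 encodes protease nexin-1, which blocks thrombin as well as both activators. In carcinoma cells this system is known for its part in matrix invasion. ETV4 is an ETS factor of the PEA3 family, whose name comes from a motif with the letters AGGAAG.

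RefSeq promoter entries of the GRCm38.p6 assembly matched 3 of the 5 genes, Plaur, Serpine2 and Serpinb2. Plau and Plat were not matched. The 250 bases before the RefSeq start are shown for these 3 genes because Plaur was higher and both serpins were lower in cells with the ETV4 guide. Each is written 5′ to 3′ on the gene's own strand, with AGGAAG and TGANTCA, the AP-1 type motif, in capitals. Plaur is at chr7:24462233-24462482 on the plus strand, Serpine2 at chr1:79858666-79858915 on the minus strand and Serpinb2, for the first of its 2 starts, at chr1:107511173-107511422 on the plus strand. The RefSeq start of Serpine2 lies 2515 bases inside the GENCODE gene model whose position is given with its levels, so this window is not upstream of that model.
Plaur: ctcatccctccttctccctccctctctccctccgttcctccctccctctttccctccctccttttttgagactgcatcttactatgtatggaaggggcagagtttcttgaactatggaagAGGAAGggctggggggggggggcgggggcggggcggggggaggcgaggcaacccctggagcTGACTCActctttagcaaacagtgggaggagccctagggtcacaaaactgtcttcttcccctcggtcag
Serpine2: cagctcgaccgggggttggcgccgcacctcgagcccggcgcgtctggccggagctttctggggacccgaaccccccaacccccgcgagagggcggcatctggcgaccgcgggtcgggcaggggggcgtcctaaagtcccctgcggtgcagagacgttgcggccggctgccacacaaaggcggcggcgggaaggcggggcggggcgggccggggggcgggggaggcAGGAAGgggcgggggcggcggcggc
Serpinb2: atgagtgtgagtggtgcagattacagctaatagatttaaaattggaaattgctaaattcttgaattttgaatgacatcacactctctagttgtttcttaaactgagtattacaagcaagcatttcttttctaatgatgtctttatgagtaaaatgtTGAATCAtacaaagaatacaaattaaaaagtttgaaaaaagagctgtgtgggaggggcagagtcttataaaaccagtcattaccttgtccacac

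The Plaur window held AGGAAG at 130 to 125 bases and TGACTCA at 69 to 63 bases before the start. The Serpine2 window held AGGAAG at 25 to 20 bases before the start and no TGANTCA. Its GC content was 78.8%, against 59.6% for Plaur and 32.4% for Serpinb2. The Serpinb2 window held TGAATCA at 94 to 88 bases before the start and no AGGAAG. No match of one motif overlapped the other. Both motifs were searched on both strands, and among 32851 RefSeq promoter windows of the same length AGGAAG was found in 29.5% and TGANTCA in 6.75%. A gene that was higher and a gene that was lower thus both carried AGGAAG, a motif common among promoters. These are matches of letters and not measured binding.

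Levels are given as CPM, the gene's share of a library's counts scaled by TMM. The libraries held 18229429 to 23193244 counts each, and 12079 genes passed the filter on low counts. Principal component 1 held 71.4% of the variance and divided the libraries by guide, and component 2, with 10.4%, set Etv4_KO replicate 2 apart. In that library 6.74% of counts fell on ribosomal protein genes, where replicate 1 had 4.96% and replicate 3 had 5.20%. On component 2, control_FGF replicate 2 lay on the same side, at -10.8 against -49.2, where control_FGF replicates 1 and 3 lay at 4.32 and 1.80. Its ribosomal protein share was 5.88%, against 5.20% and 5.25% in those replicates. Several results are also given without Etv4_KO replicate 2. Etv4 itself stood at 166 ± 3.18 CPM in control (SD, n = 3) and at 116, 159 and 116 CPM in Etv4_KO replicates 1 to 3. Its log2 fold change was -0.35 without FGF (edgeR adjusted p = 0.0173) and -0.51 with FGF (edgeR adjusted p = 0.00204), so transcripts of the targeted gene were reduced and not lost. A cut by Cas9 need not remove the transcript, so this level does not measure the protein. Without replicate 1 of control, or replicate 1 or 3 of Etv4_KO, the first of these calls was lost (adjusted p from 0.0514 to 0.0667), and without Etv4_KO replicate 2 the value was -0.51 (edgeR adjusted p = 1.14e-07). Marker sums are in CPM of the library total, without TMM scaling. Epithelial markers, 7 of 8 with counts and Krt5 at 0, summed to 4953 to 5041 CPM in control, 4316 to 5791 in Etv4_KO, 4953 to 5472 in control_FGF and 3896 to 3990 in Etv4_KO_FGF. Fibroblast markers, with Dcn and Lum at 0, summed to at most 15.3 CPM, macrophage and leukocyte markers, with Adgre1 at 0, to at most 10.5, and endothelial markers, with Kdr at 0, to at most 0.724. The lower epithelial sum in Etv4_KO_FGF stands beside every comparison of that group below, and its part in them was not tested.

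In cells with the ETV4 guide, urokinase and its receptor were higher and tissue plasminogen activator and both serpins were lower, without and with FGF. Plau was 2.01-fold and Plaur 1.51-fold higher without FGF, whereas Plat was at 0.232 and Serpine2 at 0.0669 of its control level. All 5 genes passed the test in each of these comparisons, 2 upward and 3 downward. The 5 were chosen with earlier results of these data known, and that count is read against a wide background. Of all tested genes, 45.8% passed without FGF (22.5% upward, 23.3% downward) and 40.3% with FGF (18.0% upward, 22.2% downward). Serpinb2 passed the filter on low counts only through the control_FGF libraries, where it is highest, so it had to differ and its call supports nothing further. Plau rose with FGF in both cell populations, and Plau alone of the 5 passed the edgeR test for FGF, where 0.488% of genes passed in control cells (0.257% upward, 0.232% downward) and 2.42% in Etv4_KO cells (1.47% upward, 0.944% downward). With DESeq2, 2 of the 5 rose with FGF in control cells and 3 in Etv4_KO cells, and with limma-voom 2 and 1, the others being Serpine2 and Plaur. Of all tested genes, 1.18% passed with DESeq2 in control cells and 5.92% in Etv4_KO cells. With limma-voom these shares were 0.555% and 2.38%.

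**Figure D1:**
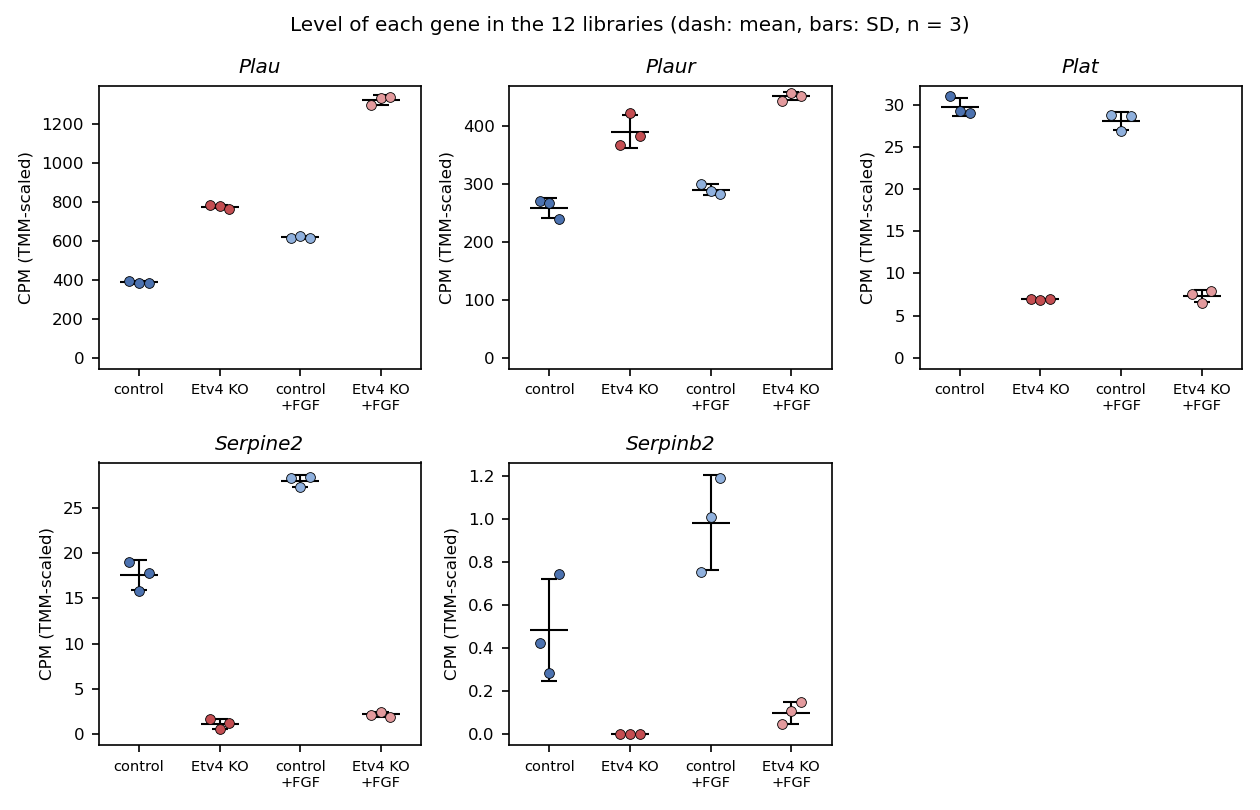
Level of each of the 5 genes in the 12 libraries, in TMM-scaled CPM on the vertical axis, by group on the horizontal axis. Points are libraries, dashes are means and bars are SD with n = 3; Plau runs from 386 CPM in control to 1321 CPM in Etv4_KO_FGF, and Plat and Serpine2 are low in both groups with the ETV4 guide.

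Plau lies on chr14 from 20836660 to 20843385 on the plus strand in mm10 and was the most abundant of the 5 genes per kilobase of exon in every group. Its level was 392.8, 380.4 and 383.3 CPM in control and 781.4, 779.4 and 764.0 CPM in Etv4_KO. With FGF it was 611.2, 625.7 and 611.5 CPM in control_FGF and 1294.6, 1330.4 and 1338.6 CPM in Etv4_KO_FGF. The 4 groups formed 4 separate steps with no overlap, control lowest, then control_FGF, Etv4_KO and Etv4_KO_FGF. The highest group mean was 3.43 times the lowest. The log2 fold change with the ETV4 guide was 1.01 (SE 0.05, edgeR adjusted p = 1.51e-08) without FGF and 1.10 (SE 0.05, edgeR adjusted p = 5.91e-09) with FGF. With FGF, Plau rose by 0.68 on the log2 scale in control cells (SE 0.05, edgeR adjusted p = 2.16e-05) and by 0.77 in Etv4_KO cells (SE 0.05, edgeR adjusted p = 5.47e-06). The interaction, the difference between those FGF responses, was 0.09 (SE 0.07, edgeR adjusted p = 0.582), with a 95% interval from -0.05 to 0.24. Of the 12079 genes, 338 had a higher fold change than Plau for the ETV4 guide without FGF and 126 for FGF in control cells.

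Plat, the second activator, lies on chr8 from 22757727 to 22782844 on the plus strand and went the opposite way from Plau with the ETV4 guide. It stood at 31.0, 29.2 and 29.1 CPM in control and at 6.92, 6.89 and 6.91 CPM in Etv4_KO. With FGF it stood at 28.8, 26.9 and 28.7 CPM in control_FGF and at 7.58, 6.50 and 7.89 CPM in Etv4_KO_FGF. Both control groups lay far above both groups with the ETV4 guide. In a bulk sample, fewer cells carrying a transcript and less transcript per cell cannot be told apart, for Plat or for the other genes. The log2 fold change was -2.11 (SE 0.09, edgeR adjusted p = 4.25e-09) without FGF and -1.94 (SE 0.09, edgeR adjusted p = 5.87e-09) with FGF. The FGF response of Plat was -0.08 in control cells (SE 0.08, 95% interval -0.25 to 0.08, edgeR adjusted p = 1.0) and 0.09 in Etv4_KO cells (SE 0.10, 95% interval -0.11 to 0.28, edgeR adjusted p = 0.633), neither past the test. The ranges of Etv4_KO and Etv4_KO_FGF overlapped, and those of control and control_FGF lay next to each other without overlap.

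Plaur, the receptor gene, lies on chr7 from 24462484 to 24475968 on the plus strand and followed the order of Plau with smaller steps. Its level was 270.0, 266.2 and 238.8 CPM in control and 367.0, 421.6 and 382.1 CPM in Etv4_KO. With FGF it was 299.9, 288.4 and 282.2 CPM in control_FGF and 443.4, 457.1 and 452.3 CPM in Etv4_KO_FGF. No group overlapped its neighbour, but the control groups without and with FGF lay close together, and the highest Etv4_KO value is the library that stands apart. The log2 fold change with the ETV4 guide was 0.60 (SE 0.07, edgeR adjusted p = 2.56e-05) without FGF and 0.64 (SE 0.07, edgeR adjusted p = 1.51e-05) with FGF. The FGF responses were 0.17 in control cells (SE 0.07, edgeR adjusted p = 0.778) and 0.21 in Etv4_KO cells (SE 0.07, edgeR adjusted p = 0.142). Neither passed, although the second did with DESeq2 (adjusted p = 0.0284) and in edgeR without Etv4_KO replicate 2 (0.27, adjusted p = 0.00239). The interaction was 0.04 (SE 0.10, 95% interval -0.16 to 0.24, edgeR adjusted p = 0.856). The ratio of Plau to Plaur per kilobase of exon rose from 1.65 in control to 2.35 in control_FGF, 2.20 in Etv4_KO and 3.24 in Etv4_KO_FGF (geometric means, a description without a test).

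Serpine2 lies on chr1 from 79794197 to 79861180 on the minus strand and had the lowest ratio between the guides among the 4 genes with counts in every library. It stood at 19.0, 15.8 and 17.8 CPM in control and at 1.67, 0.540 and 1.22 CPM in Etv4_KO. With FGF it stood at 28.2, 27.2 and 28.4 CPM in control_FGF and at 2.10, 2.49 and 1.92 CPM in Etv4_KO_FGF. All 6 libraries with the ETV4 guide were below all 6 control libraries, and each FGF group lay above its counterpart without FGF. The log2 fold change with the ETV4 guide was -3.90 (SE 0.21, edgeR adjusted p = 2.06e-08) without FGF, or -3.61 without Etv4_KO replicate 2, and -3.69 (SE 0.19, edgeR adjusted p = 1.06e-08) with FGF. The FGF response was 0.67 in control cells (SE 0.15, edgeR adjusted p = 0.0995) and 0.89 in Etv4_KO cells (SE 0.26, edgeR adjusted p = 0.103), neither past the test. The first passed without Etv4_KO replicate 1 or 2 (edgeR adjusted p = 0.0402 and 7.39e-05), with DESeq2 (adjusted p = 4.35e-05) and with limma-voom (adjusted p = 0.0158). The second passed without Etv4_KO replicate 1 (log2 1.24, edgeR adjusted p = 0.0329) and with DESeq2 (adjusted p = 0.00871). The interaction was 0.21 (SE 0.30, 95% interval -0.38 to 0.81, edgeR adjusted p = 0.743).

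Serpinb2 lies on chr1 from 107511423 to 107535478 on the plus strand, overlaps the same-strand gene model Serpinb10, and was near the limit of detection in all 12 libraries. It had 9, 6 and 15 reads in control, 0, 0 and 0 in Etv4_KO, 18, 20 and 25 in control_FGF, and 1, 2 and 3 in Etv4_KO_FGF. Against the 30 control reads, the 0 reads of Etv4_KO make Serpinb2 at least 9.26-fold lower there, with a floor of 3 reads over the group (edgeR adjusted p = 0.000903). With FGF, 63 reads stood against 6, a ratio of 9.83 with a 95% counting interval from 4.27 to 27.8 (edgeR adjusted p = 0.000777). Serpinb2 passed the filter on low counts only through the control_FGF libraries, so these calls with the ETV4 guide support nothing further. Floors and counting intervals cover counting error only. The FGF ratio in control cells was 2.03 (counting interval 1.29 to 3.25, edgeR adjusted p = 0.734), with no overlap but only 0.747 against 0.753 CPM between the nearest libraries. In Etv4_KO cells FGF libraries were at least 1.91-fold higher (edgeR adjusted p = 0.179). No FGF response of Serpinb2 passed the test, and its reads that fall where the models overlap cannot be assigned with certainty.

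**Figure D2:**
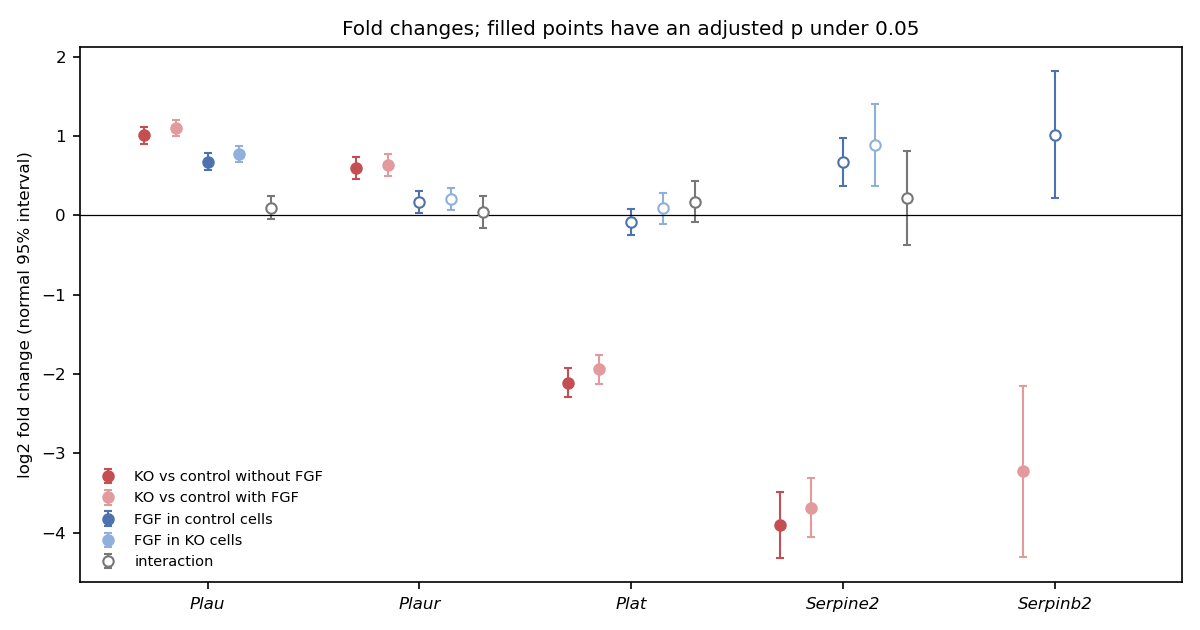
Log2 fold change on the vertical axis, with its 95% interval, for 5 comparisons of each gene on the horizontal axis. Filled points passed an adjusted p of 0.05; the Serpinb2 comparisons that involve a group at 0 reads, its interaction among them, are left out, and every interaction interval shown spans 0.

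A ratio of the 4 activator and serpin transcripts was taken per library as the sum of Plau and Plat over the sum of Serpine2 and Serpinb2, in CPM per kilobase of exon. It is a ratio of transcripts, not of proteins or activities, and carries no test. It counts only these 2 inhibitors, and the activators have others, so it does not give the balance of activators to all their inhibitors, which may differ in size and direction. Its geometric mean was 72.2 in control, 2430 in Etv4_KO, 69.7 in control_FGF and 1790 in Etv4_KO_FGF. On the log2 scale these were 6.17 ± 0.149, 11.24 ± 0.770, 6.12 ± 0.0577 and 10.80 ± 0.150 (SD, n = 3). The ratio was thus 33.6-fold higher with the ETV4 guide without FGF and 25.6-fold higher with FGF, and the log2 FGF difference in control cells was -0.05. Etv4_KO replicate 2, with 9 Serpine2 reads, had a ratio of 4400, against 1570 and 2070 in replicates 1 and 3. Without that library the log2 difference with the ETV4 guide without FGF was 4.64 instead of 5.07, beside 4.68 with FGF. The log2 FGF difference in Etv4_KO cells, -0.44, was -0.01 without Etv4_KO replicate 2, so it rests on that library. Plau made up 97.2% of the 2 activators in control and 99.7% in Etv4_KO, so the loss of Plat barely enters the numerator. The denominator fell from 2.32 to 0.138 CPM per kilobase without FGF and from 3.79 to 0.305 with FGF.

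Single pairs of genes went the same way with the ETV4 guide. Plau over Serpine2 went from a geometric mean of 77.2 in control to 2630 in Etv4_KO, and from 77.2 to 2140 with FGF. Plat over Serpine2 went from 2.26 in control to 8.91 in Etv4_KO, and from 1.33 to 4.49 with FGF. Both Etv4_KO means are raised by replicate 2, at 5060 and 17.0, against 1640 and 5.51 in replicate 1 and 2200 and 7.56 in replicate 3. Plat and Serpine2 both fell with the ETV4 guide, and Serpine2 had the lower ratio between the guides, so the pair rose although its activator was lower.

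**Figure D3:**
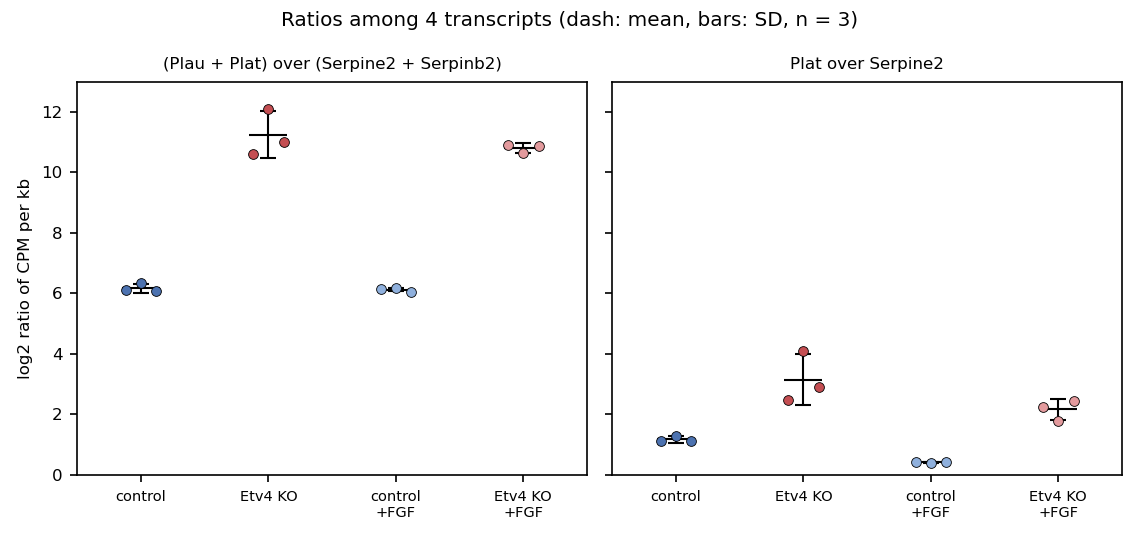
Log2 ratio of transcripts in CPM per kilobase of exon on the vertical axis, by group on the horizontal axis; points are libraries, dashes are means and bars are SD (n = 3). For Plau plus Plat over Serpine2 plus Serpinb2, left, the groups with the ETV4 guide lie about the means 11.24 and 10.80 against 6.17 and 6.12; for Plat over Serpine2, right, the means are 3.16 and 2.17 against 1.18 and 0.42.

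The 5 genes were also set beside the 25 tested genes on each side of them in mm10. The 50 neighbours of Plau had a median log2 fold change of 0.17 with the ETV4 guide without FGF and 0.25 with FGF, and 0 and 1 of them rose as much as Plau, while 3 and 2 were as far from 0 in the opposite direction. For Plaur the medians were 0.25 and 0.16, and 8 and 5 neighbours were at least as high, the most for any of the 5 genes in its own direction. For Plat the medians were -0.25 and -0.19, with 2 neighbours as low in each comparison. Serpine2 had neighbour medians of -0.07 and 0.05, with 3 and 2 as low. For Serpinb2 the medians were -0.23 and -0.18. The neighbours' medians had the sign of their gene in both comparisons for Plau, Plaur, Plat and Serpinb2, at sizes well below it. With 10 genes on each side they also kept that sign, from 0.02 to 0.31 in size.

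**Figure D4:**
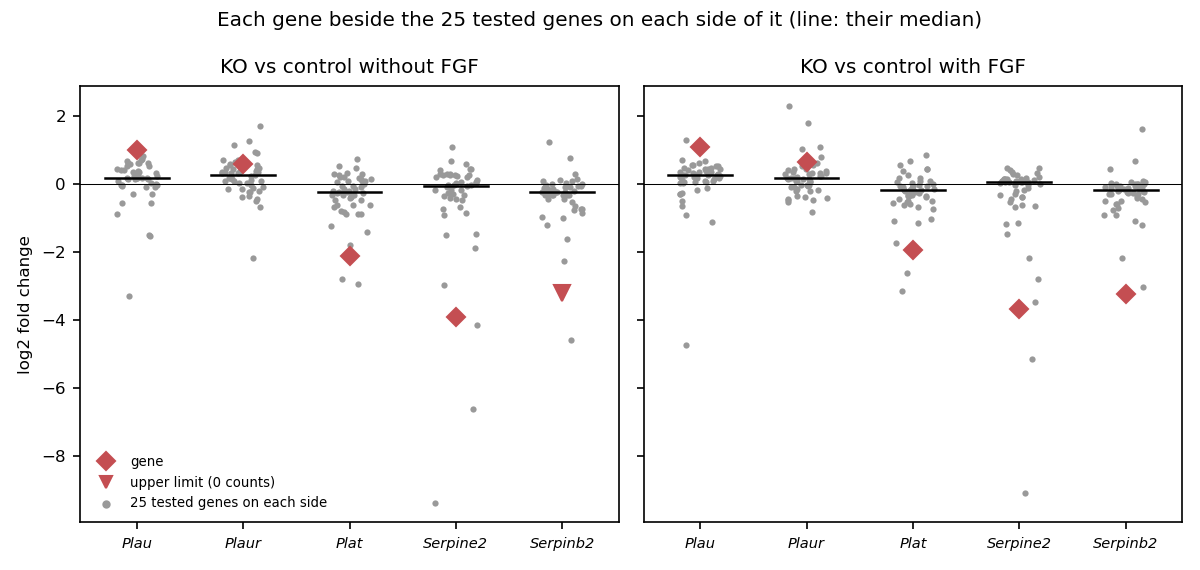
Log2 fold change with the ETV4 guide on the vertical axis for each gene (red) and the 25 tested genes on each side of it (grey, with a line at their median), without FGF at left and with FGF at right. The triangle is the upper limit for Serpinb2 at 0 reads, some low grey points rest on few reads, and Plat, Serpine2 and Serpinb2 lie below most of their neighbours.

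The genes whose course over the 12 libraries was nearest to each member were found by the root mean square difference of log2 CPM after subtracting each gene's mean, over all tested genes with an assigned name. Nearest to Plau were Lama3 (0.134) and Lamb3 (0.144), which encode chains of laminin-332, and the Notch ligand gene Dll4 (0.151). Lama3 stood at 381, 754, 496 and 1222 CPM on average in control, Etv4_KO, control_FGF and Etv4_KO_FGF. Nearest to Plaur were Rdh11 (0.0461), Hsd17b12 (0.0528) and Ier3 (0.0551). Nearest to Plat were Baiap2l1 (0.152), Rbpms (0.155) and Vasn (0.155). Nearest to Serpine2 were Atf7ip2 (0.479), Stc2 (0.506) and Arrdc4 (0.513), and nearest to Serpinb2 were Slc9a2 (0.419), Cyth4 (0.435) and Tmem51 (0.449). The 2 serpins, with the lowest counts of the 5 genes, had the largest distances.

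The other genes of the plasmin system were taken as 6 lists by role, chosen with earlier results of these data known. The lists held 70 genes in all, of which 69 were rows of the table and 44 were tested. Without FGF, 14 rose, 17 fell and 13 did not pass with the ETV4 guide, with a median log2 fold change of -0.07 against -0.01 for all genes. With FGF, 13 rose, 15 fell and 16 did not pass, with medians of 0.05 and -0.01. Of the 44, 70.5% passed without FGF and 63.6% with FGF, beside 45.8% and 40.3% of all tested genes. Without FGF, 41.7% of the uPAR partners and clearance receptors passed, near the share of all genes, and 85.7% of the plasmin substrates, Tgfb2 included. Of the 44, 4 passed the filter on low counts only through the libraries of 1 guide (Tgfb2, Serpinb6b, Serpinb8 and Serpinb9b), so their calls support nothing further. Among the other 40, 13 rose and 14 fell without FGF, and 12 rose and 13 fell with FGF. Plasminogen itself, Plg, had 4 reads in all 12 libraries and was not tested.

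Among the proteases that activate plasminogen or pro-urokinase, Ctsb, which encodes cathepsin B, rose by 0.46 on the log2 scale without FGF and by 0.54 with FGF (SE 0.08 each, edgeR adjusted p = 0.000606 and 0.000228). F12, which encodes coagulation factor XII, had -0.37 and -0.54 (SE 0.13 each, edgeR adjusted p = 0.0296 and 0.00428). The first F12 call was lost without control replicate 2 or 3 or Etv4_KO replicate 1 or 3. Both tested genes of the other inhibitors listed rose without FGF, Spint1 (0.34, SE 0.08) and Spint2 (0.23, SE 0.08), which encode Kunitz inhibitors of the proteases matriptase and hepsin. Of all tested genes, 22.5% rose in that comparison. Without Etv4_KO replicate 2 they had 0.23 and 0.16. The Spint2 call was lost without control replicate 2 or 3. With FGF both passed too, and both calls were lost without any 1 of control_FGF replicates 1 and 3 and the 3 Etv4_KO_FGF libraries, and that of Spint2 also without control replicate 2.

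Of the 6 plasminogen receptors, 4 rose and none fell without FGF: S100a10 (0.55, SE 0.09), its partner Anxa2 (0.46, SE 0.11), Hmgb1 (0.37, SE 0.10) and the enolase gene Eno1 (0.29, SE 0.10). The share that passed without FGF was 66.7%, beside 45.8% of all tested genes (22.5% upward). At an unadjusted p under 0.05, 0 fell there, and 0 with DESeq2 and limma-voom, although 1 fell without control replicate 3 or Etv4_KO replicate 2. Without Etv4_KO replicate 2, the 4 values were 0.42, 0.29, 0.33 and 0.12. The Eno1 call (edgeR adjusted p = 0.0377) was lost in 7 of the 12 fits that each leave out 1 library, those without any 1 library of control or Etv4_KO_FGF or without control_FGF replicate 3 (adjusted p from 0.0506 to 0.117), with upper-quartile scaling (0.063) and in the compared libraries alone (0.128). With FGF, 0 rose and 1 fell, Krt8 (-0.43, SE 0.13), a keratin that also binds plasminogen. Krt8 is also among the epithelial markers whose sum was lower in Etv4_KO_FGF, so its fall is part of that lower sum. The share that passed with FGF was 16.7%, beside 40.3% of all tested genes. At an unadjusted p under 0.05, 2 rose, with DESeq2 1 and with limma-voom 0. Without Etv4_KO replicate 2, 3 rose and 66.7% passed, beside 58.6% of all tested genes in that fit. Leaving out control_FGF replicate 2 gave 2 that rose, and leaving out Etv4_KO replicate 1 gave 1. The Krt8 call was lost without Etv4_KO_FGF replicate 2 or 3.

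Among uPAR partners and clearance receptors, the integrin subunit gene Itgb3 was lowest, at -2.61 (SE 0.26, edgeR adjusted p = 5.51e-06) without FGF and -2.01 (SE 0.24, edgeR adjusted p = 2.22e-05) with FGF. The sorting receptor gene Sorl1 (-1.03, SE 0.13) and Itgb5 (-0.52, SE 0.11, or -0.68 without Etv4_KO replicate 2) also fell without FGF, while Itga5, which encodes the fibronectin receptor subunit, rose by 0.48 (SE 0.07). Of 12 tested, 2 rose and 3 fell without FGF, and 4 rose and 4 fell with FGF, where 66.7% passed beside 40.3% of all tested genes. These counts moved with single libraries. Without Etv4_KO replicate 2, 14 were tested. Of these, 5 rose and 6 fell without FGF (78.6%, beside 54.5% of all tested genes in that fit). With FGF, 7 rose and 5 fell (85.7%, beside 58.6%). Between 5 and 6 fell without FGF when control replicate 3, Etv4_KO replicate 1, control_FGF replicate 2 or any 1 Etv4_KO_FGF library was left out.

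Of 14 tested plasmin substrates, 3 rose and 9 fell without FGF, and 4 rose and 4 fell with FGF, or 2 fell without control_FGF replicate 2. With FGF, 57.1% of the 14 passed, beside 40.3% of all tested genes. Leaving out Tgfb2, which passed the filter only through control guide libraries, 13 remained. Of these, 3 rose and 8 fell without FGF, and 4 rose and 4 fell with FGF. Mmp3, which encodes stromelysin-1, a pro-metalloproteinase that plasmin activates, rose by 1.24 and 1.22 (SE 0.06 each). Fibronectin, Fn1, had -1.59 and -1.37 (SE 0.11 each, edgeR adjusted p = 1.5e-07 and 5.17e-07), and thrombospondin-1, Thbs1, had -1.40 without FGF (SE 0.22, edgeR adjusted p = 0.000208), or -1.11 without Etv4_KO replicate 2. Mmp9, which encodes gelatinase B, changed direction between the comparisons, at -0.61 without FGF and 0.34 with FGF (SE 0.08 each, edgeR adjusted p = 5.03e-05 and 0.00335). Of the 6 other clade B serpins tested, the 3 that passed the filter through libraries of both guides gave 1 that rose and 2 that fell in each comparison. Serpinb5, which encodes maspin, had -1.20 and -1.19 (SE 0.12 each), and Serpinb6a rose by 0.80 without FGF (SE 0.10). Serpinb8 had 61 reads in control and 2 in Etv4_KO (ratio 28.2, counting interval 7.49 to 238), and Serpinb6b 54 and 4 (ratio 12.5, counting interval 4.61 to 47.5). Like Serpinb2, both rest on few reads and passed the filter only through control guide libraries, so their ratios support nothing further. Serpinb9b, which passed it only through ETV4 guide libraries, went the other way, with 19 reads in control and 120 in Etv4_KO.

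**Figure D5:**
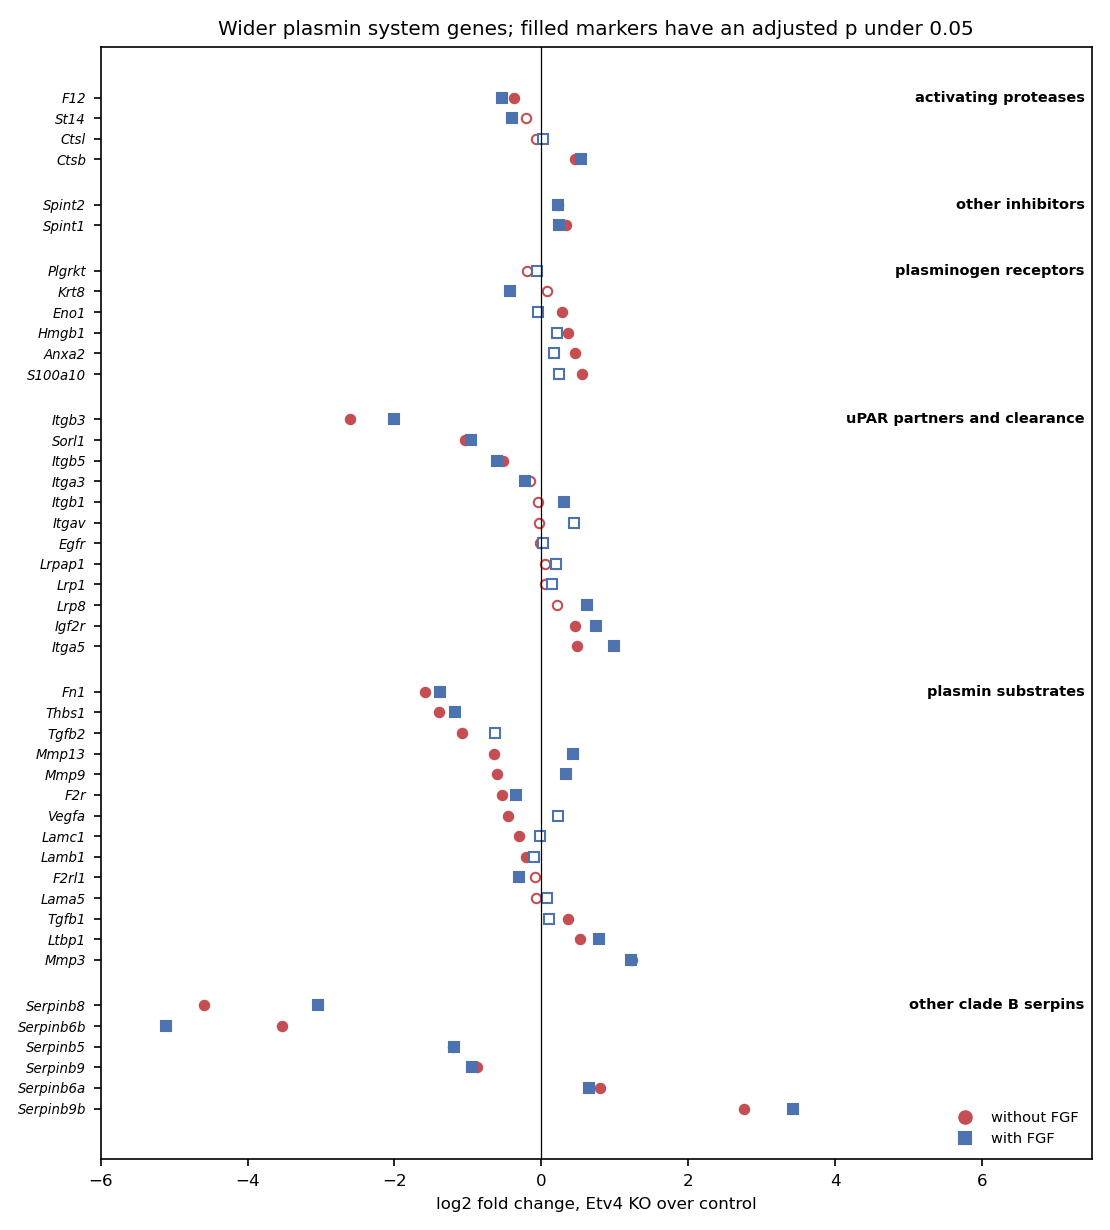
Log2 fold change with the ETV4 guide on the horizontal axis for the 44 tested genes of the 6 lists, one gene per line, without FGF (circles) and with FGF (squares). Filled markers passed an adjusted p of 0.05; fitted values of Serpinb8, Serpinb6b and Serpinb9b rest on few reads, and Mmp9 and Mmp13 lie on opposite sides of 0 in the 2 comparisons.

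For FGF, 3 of the 44 rose in control cells, Ctsl (0.36, SE 0.07), Mmp3 (0.49, SE 0.06) and Mmp9 (0.56, SE 0.08), and 0 fell in edgeR, with 3 falling at an unadjusted p under 0.05 and 0 in DESeq2 and limma-voom. The 3 that rose were 6.82% of the 44, beside 0.488% of all tested genes that passed. Without Etv4_KO replicate 2, 46 were tested, of which 4 rose and 2 fell (13%, beside 2.8% of all tested genes in that fit). Leaving out 1 library of any group but Etv4_KO ended the Ctsl call (adjusted p from 0.063 to 0.219). In Etv4_KO cells, 6 rose, among them Ctsl (0.45, SE 0.07), Itga5 (0.58, SE 0.07), Itgb1 (0.44, SE 0.07), Mmp9 (1.52, SE 0.08) and Mmp13 (1.12, SE 0.10), which encodes collagenase-3. The 6 were 13.6% of the 44, beside 2.42% of all tested genes that passed. In the compared libraries alone 3 rose, and the calls of Ctsl (adjusted p = 0.0692) and Itgb1 (adjusted p = 0.188) were lost. None fell in edgeR or limma-voom, 1 fell in DESeq2 and 5 at an unadjusted p under 0.05. Without Etv4_KO replicate 2, 11 of 46 tested rose and 3 fell (30.4%, beside 7.76% of all tested genes in that fit). Without Etv4_KO replicate 1 or 3, 1 fell. The interaction passed for 2 genes of all 12079 (0.0166%), Mmp9 and Mmp13. Both were on the list of plasmin substrates. That list was chosen with earlier results of these data known, so their place on it supports nothing further. The interaction of none of the 5 members passed by edgeR, DESeq2 or limma-voom, nor at an unadjusted p under 0.05 (0 of 5). Of all tested genes, 0.546% passed with DESeq2 and 0.0331% with limma-voom. At the unadjusted threshold in edgeR, 555 of the 12079 genes were higher and 672 lower. Failing to pass does not show that the FGF responses were equal, and for Serpinb2 the fit includes a group at 0 reads.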

How the data were processed

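The deposited table holds unnormalized read counts for each gene symbol. STAR 2.7.9a and featureCounts are named per the submitters' processing notes, with FastQC 0.11.9, R 4.1.1 and the builds hg38 and mm10. The sources used here do not give the strand setting or how reads with several matches were handled. Mouse symbols were matched to GENCODE vM21 gene models on mm10. Totals ran from 18229429 to 23193244 counts, and no replicates were duplicates (chi-square per degree of freedom at least 3.26).

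Counts were tested with edgeR 4.0.16 in R 4.3.3: a two-sided quasi-likelihood F-test after filterByExpr and TMM, with 1 mean per group, 12 libraries and 8 residual degrees of freedom. Adjusted p (Benjamini-Hochberg over 12079 genes) under 0.05 was a call. The code was tested on simulated data. The SE is the log2 fold change over the square root of F, and its 95% interval is normal. In the ratio of the 4 transcripts, 0.01 was added to each sum.

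The members and lists were chosen with earlier results of these data known. Named genes are the members, Etv4, Plg, per list up to 4 called genes with the smallest adjusted p for the ETV4 guide without FGF and up to 2 in each other comparison, and the 3 nearest genes per member. Serpinb9b and Tgfb2 were named after their values were seen. The 20 alternatives were 2 other scalings (RLE, upper-quartile), DESeq2 1.42.0, limma-voom (limma 3.58.1), a replicate block, 2 other low-count filters, a fit to the compared libraries only, and 12 fits that each leave out 1 library. For the ratio they were counts without length, Plau alone, and each library left out. 1 further gene of the planned lists and alternatives is not reported here.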

Additional observations from a re-analysis of the deposited data

Results flagged for a closer look

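2 results stood out because the FGF response differed between the guides by the interaction test. Both are genes of the wider list of plasmin substrates, which was chosen with earlier results of these data known. For Mmp9 the FGF response was larger by 0.95 on the log2 scale in Etv4_KO cells than in control cells (SE 0.11, edgeR adjusted p = 0.0123). For Mmp13 the difference was 1.08 (SE 0.14, edgeR adjusted p = 0.0243). The direction held when each library was left out. The Mmp9 call was lost without any 1 of control replicates 1 to 3, control_FGF replicates 1 and 3 and Etv4_KO_FGF replicates 1 and 2 (adjusted p from 0.0513 to 0.091). The Mmp13 call was lost without any 1 library of control or control_FGF, or Etv4_KO_FGF replicate 1 or 2 (adjusted p from 0.0535 to 0.153). Without Etv4_KO replicate 2 the values were 1.03 and 0.97 (edgeR adjusted p = 6.17e-08 and 3.78e-06). The epithelial marker sum was lower in Etv4_KO_FGF, and its part in these differences was not tested.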

How the results depend on the processing

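For the ETV4 guide, Plau, Plaur, Plat and Serpine2 kept direction and call in both comparisons under all 20 alternatives, as did Plau for FGF. Calls that appeared under an alternative were Plaur for FGF in Etv4_KO cells with DESeq2 (0.22; 0.17 to 0.27 leaving out 1 library), Serpine2 for FGF in control cells with DESeq2, limma-voom and no low-count filter (0.68 each) and the compared libraries alone (0.67; 0.60 to 0.74 leaving out 1 library), and Serpine2 for FGF in Etv4_KO cells with DESeq2 (0.90; 0.59 to 1.24 leaving out 1 library). The interaction turned sign within -0.0011 to 0.10 for Plaur (without Etv4_KO replicate 1) and -0.080 to 0.57 for Serpine2 (without Etv4_KO replicate 2). Leaving out 1 library, the log2 ratio of activator to serpin transcripts ranged from -0.10 to 0.034 for FGF in control cells (above 0 without control replicate 2), from -0.76 to -0.01 for FGF in Etv4_KO cells, and from -0.71 to 0.038 for the interaction (above 0 without Etv4_KO replicate 2). Serpinb2 was limited by depth. The causes were not tested.

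Counts over all genes moved more. For the ETV4 guide, 1805 rose without FGF in the compared libraries alone against 2723, and with FGF 1731 to 3439 rose leaving out 1 library against 2180. For FGF in control cells, 31 rose and 28 fell: with DESeq2 85 and 58, in the compared libraries alone 130 and 98, leaving out 1 library 10 to 194 and 15 to 149. For FGF in Etv4_KO cells, 178 rose and 114 fell: with DESeq2 406 and 309, in the compared libraries alone 18 and 5, leaving out 1 library 75 to 585 and 45 to 365. The interaction was higher for 2 genes and lower for 0 (672 at an unadjusted p under 0.05): with DESeq2 42 and 24, with no low-count filter 7 and 1, with limma-voom 3 and 1, leaving out 1 library 0 to 88 and 0 to 32. The highest of each of these leave-one-out ranges was without Etv4_KO replicate 2.

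The main fit did not pair libraries by replicate number. Correlations of deviations between same-numbered libraries ran from -0.09 to 0.34, with 2 of 18 over 0.1, and 6 of 12 libraries correlated best with their own number. The 2 pairs were Etv4_KO with control_FGF, for replicates 2 (0.34) and replicates 1 (0.21). The median was 0.008 for same-numbered libraries and 0.003 for the others. With a replicate block, 2775 genes rose and 2930 fell with the ETV4 guide without FGF, against 2723 and 2810, Plau had 1.01, and no member's call changed.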
